A study of Mus musculus with 27 samples.

Results

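Apelin and its receptor were followed across the 4 groups of whole retinas in a mouse study of pathological retinal neovascularization (RNV). The members were 2 genes taken by symbol from a table of 40129 genes, namely Apln, which encodes the secreted peptide apelin, and Aplnr, which encodes its receptor. Both were found, and both passed the filter on low values that left 27137 genes for testing. The mice were male and female C57BL/6 wild-type pups (C57BL/6J in the study's methods). In oxygen-induced retinopathy (OIR), newborn pups are kept in high oxygen, which halts and prunes the growing retinal vessels, and are then returned to room air, where the retina becomes ischemic and later grows vessel tufts. The control pups (nOIR) stayed in room air throughout. Retinas were taken at postnatal day 14 (p14), when the tissue is ischemic but has little neovascularization, and at p17, when RNV peaks. At p14 there were 6 nOIR and 6 OIR mice, and at p17 there were 6 nOIR and 8 OIR mice. A further nOIR p14 mouse, S4, was in the table but was left out, as in the study, because of lens contamination. S4 had 6142 normalized reads of the lens gene Cryaa, and mouse S5 of the same group, which was kept, had 6771. Each library held whole retina of 1 mouse, from 1 eye in some mice and from both eyes pooled in others, so vessels were a small share of the RNA, and for every gene below fewer cells of a type and less RNA per cell cannot be told apart.

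Apelin is made as a precursor from which proteases release short active peptides at its carboxyl end. The peptides bind the apelin receptor, a G protein-coupled receptor that is carried mainly by endothelial cells. In the growing retina, Apln is known as a gene of the tip cells that lead vessel sprouts and as a gene induced by low oxygen, while Aplnr is found mainly in the veins and in the stalk cells behind the tip. The receptor has another peptide ligand, encoded by Apela.

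The precursor is shown first, because the reads of Apln measured below come from its transcript and the ligand is only the end of it. The coding sequence of the transcript Apln-201 (GENCODE M21, plus sense of the transcript, 231 bases, 77 codons without the stop, 3 exons in the whole transcript) is printed with the 13 codons of the peptide apelin-13 in capitals. The coding sequence of Apela-202 (162 bases, 54 codons) follows for comparison, with its last 11 codons, which encode the carboxyl end of the other ligand, in capitals. In both, the receptor ligand is the end of a short precursor.

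Apln: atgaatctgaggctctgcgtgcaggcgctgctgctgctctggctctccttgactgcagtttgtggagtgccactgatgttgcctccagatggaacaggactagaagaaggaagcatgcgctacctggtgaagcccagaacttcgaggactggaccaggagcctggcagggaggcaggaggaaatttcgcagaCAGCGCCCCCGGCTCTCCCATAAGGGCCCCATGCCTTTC

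Apela: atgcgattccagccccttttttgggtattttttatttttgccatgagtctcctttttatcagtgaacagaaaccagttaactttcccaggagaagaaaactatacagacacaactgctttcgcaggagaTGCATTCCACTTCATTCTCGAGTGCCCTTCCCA

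Apln lies on chromosome X, minus strand, and Aplnr on chromosome 2, plus strand. No other annotated gene overlaps either of them, whereas Apela on chromosome 8 overlaps the annotated gene Gm45886 on the same strand, so reads of Apela are uncertain. The promoter table of RefSeq (GRCm38.p6) held an entry for 2 of these 3 genes, Apln and Apela. The 250 bases before the start of Apln, chrX:48034854-48035103 on the minus strand, are printed because Apln moved together with genes induced by low oxygen, which share a short response element.

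Apln promoter: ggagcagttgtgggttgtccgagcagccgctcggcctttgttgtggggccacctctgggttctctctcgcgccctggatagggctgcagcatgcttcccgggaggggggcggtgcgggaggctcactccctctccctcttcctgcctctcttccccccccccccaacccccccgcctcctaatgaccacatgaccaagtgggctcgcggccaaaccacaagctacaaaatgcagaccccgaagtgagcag

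The core of the hypoxia response element was searched as ACGTG or GCGTG on both strands. It had 0 matches in these 250 bases of Apln and 0 in those of Apela, while 41.5% of the 27025 genes with a promoter entry had a match. Of the 12 hypoxia-induced genes listed for comparison, 11 had an entry and 11 of 11 had a match. This says only that these letters are not in that window of Apln.

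The deposited values were normalized reads, which are counts divided by a size factor for each mouse. Whole reads could be recovered from them, with 17029536 to 33593428 reads per mouse and a median of 30024568. The lowest value behind any statement was 110 recovered reads for Apln and 203 for Aplnr. The 5 ganglion cell markers summed to between 18675 and 31890.3 normalized reads over all groups, so neurons of the retina were present as labelled. Lens markers were present in all groups and overlapped widely, from 65.7 to 13824 in nOIR p14 and from 243 to 24098 in OIR p17 mice, and 0 of 6 passed in either comparison of OIR with nOIR mice by limma, edgeR or DESeq2 (0 also at an unadjusted limma p under 0.05). Each group came from only a few litters, the litter of each mouse was not in the labels, and p-values therefore measure the spread between these mice.

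Apln was higher in OIR than in nOIR retinas at both ages, moderately at p14 and strongly at p17. In nOIR p14 mice, Apln ranged from 208 to 483 normalized reads with a median of 263. In OIR p14 mice, it ranged from 631 to 1175 with a median of 745. Every OIR mouse thus lay above every nOIR mouse of that age, and the arithmetic means were 284 ± 100.2 (SD, n = 6) and 837 ± 227 (SD, n = 6), a 2.95-fold difference. On the log2 scale, Apln was 1.57 higher in OIR p14 mice (SE 0.22, 95% interval 1.12 to 2.03), with an adjusted p of 1.80e-05 by limma with Benjamini-Hochberg adjustment over all genes tested. The exact two-sided permutation test gave p = 0.00216, the smallest that 6 against 6 mice allow. Of all genes tested at p14, 3.18% passed the test as higher in OIR mice and 1.91% had all OIR mice above all nOIR mice. Apln did not reach the log2 fold change above 2 that the study also asks of a differentially expressed gene (DEG), a rule that 0.744% of genes met as higher at p14.

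At p17 the difference was much larger. In nOIR p17 mice, Apln ranged from 125 to 237 normalized reads with a median of 160. In OIR p17 mice, it ranged from 1841 to 4991 with a median of 3981. The lowest OIR mouse, S4, had more than every mouse of the other 3 groups, and the means of 169 ± 37.3 (SD, n = 6) and 3762 ± 1109 (SD, n = 8) differed 22.3-fold. The log2 fold change was 4.43 (SE 0.21, 95% interval 4.01 to 4.85, limma adjusted p = 2.05e-15), which met the DEG rule, and the exact permutation test gave p = 0.000666, the smallest that 8 against 6 mice allow. At p17, 7.39% of all genes passed the test as higher in OIR mice, 1.9% met the DEG rule as higher and 3.9% had all OIR mice above all nOIR mice. Among the 27137 genes, Apln had the 37th largest log2 fold change and the 5th smallest p at p17.

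Apln rose with age in OIR mice. OIR p17 mice had 4.49 times the mean of OIR p14 mice, without overlap (1.41% of all genes), and the log2 difference was 2.14 (SE 0.21, limma adjusted p = 3.88e-08). Of all genes, 4.11% passed as higher in OIR p17 than in OIR p14 mice. In nOIR mice, the mean at p17 was 0.595 times that at p14, and 5 of 6 nOIR p17 mice lay below every nOIR p14 mouse. This log2 difference of -0.71 (SE 0.22, 95% interval -1.17 to -0.26) did not pass the test over all genes (limma adjusted p = 0.222), while the exact permutation test of Apln alone gave p = 0.00649. The effect of OIR was larger at p17 than at p14 by 2.85 on the log2 scale (SE 0.30, limma adjusted p = 6.80e-07), a contrast in which 1.43% of all genes passed as higher. The comparisons share groups, so their values are set side by side and are not independent of each other.

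**Figure D1:**
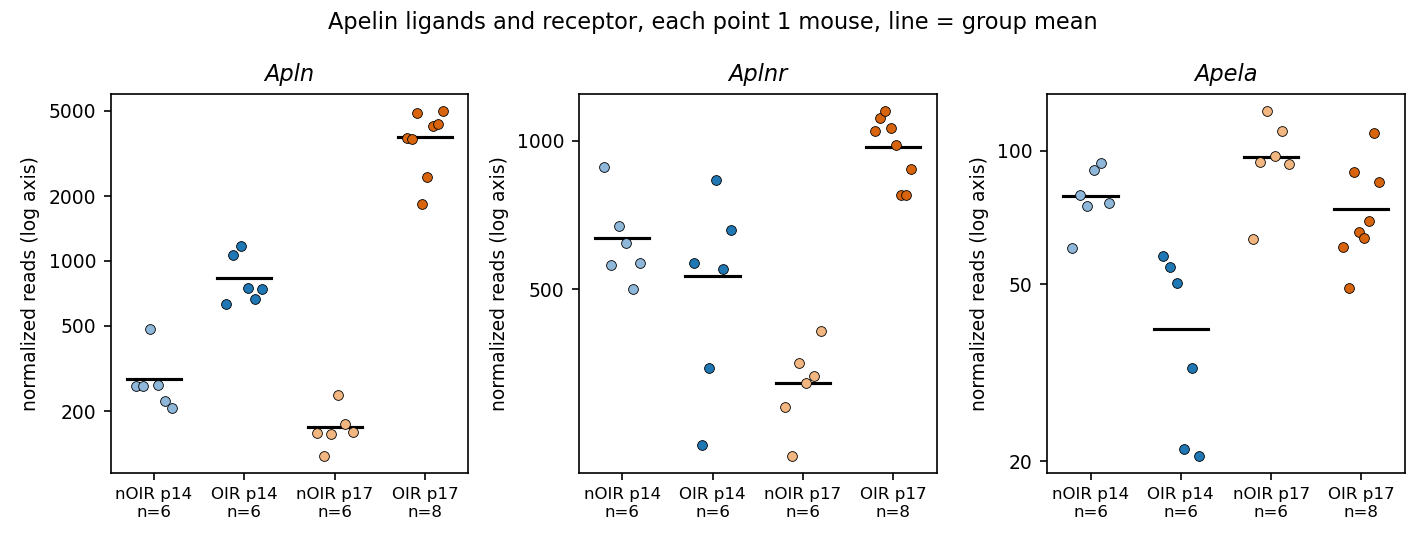
Normalized reads of Apln, Aplnr and Apela (log axes, each panel with its own range) in each mouse, with control and OIR mice of p14 and then of p17 from left to right and a line at the group mean. Apln is separated between OIR and nOIR mice at both ages, while Aplnr overlaps at p14 and is separated at p17, where OIR mice hold 777 to 1149 reads and nOIR mice 230 to 411.

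Aplnr, the receptor gene, overlapped between OIR and nOIR retinas at p14 and was higher in OIR retinas at p17. At p14, Aplnr ranged from 501 to 883 normalized reads in nOIR mice with a median of 594. In OIR p14 mice, it ranged from 242 to 834 with a median of 557. The groups overlapped, with 2 of 6 OIR mice, S2 and S3, below every nOIR mouse. The means were 634 ± 135 (SD, n = 6) and 532 ± 213 (SD, n = 6), and the log2 difference of -0.34 did not pass (SE 0.21, 95% interval -0.76 to 0.08, limma adjusted p = 0.446), with p = 0.290 by the exact permutation test.

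At p17, Aplnr ranged from 230 to 411 normalized reads in nOIR mice with a median of 329. In OIR p17 mice, it ranged from 777 to 1149 with a median of 1013. All 8 OIR mice lay above all 6 nOIR mice, and the means of 324 ± 61.1 (SD, n = 6) and 972 ± 146 (SD, n = 8) differed 3.005-fold. The log2 fold change of Aplnr was 1.59 (SE 0.19, 95% interval 1.2 to 1.99, limma adjusted p = 3.91e-07), under the DEG limit of 2, and the exact permutation test gave p = 0.000666. Of all genes tested at p17, 7.39% passed as higher in OIR mice and 3.9% had all OIR mice above all nOIR mice. The effect of OIR on Aplnr at p17 exceeded that at p14 by 1.93 on the log2 scale (SE 0.28, limma adjusted p = 0.000102). In that contrast 1.43% of all genes passed as higher.

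With age, Aplnr fell in nOIR mice and rose in OIR mice. The mean in nOIR p17 mice was 0.51 times that in nOIR p14 mice, all 6 nOIR p17 mice lay below all nOIR p14 mice, and the log2 difference was -0.97 (SE 0.21, limma adjusted p = 0.0297). Only 0.158% of all genes passed as lower in this comparison of the control ages, and 0.674% had all nOIR p17 mice below all nOIR p14 mice. The call was lost when any 1 of 7 mice was left out, nOIR p14 mouse S1, S3 or S5 or nOIR p17 mouse S1, S2, S4 or S5, with a highest adjusted p of 0.0972, although the difference stayed between -1.04 and -0.87. In OIR mice, Aplnr was 0.96 higher at p17 than at p14 on the log2 scale (SE 0.19, limma adjusted p = 0.00159), with 6 of 8 OIR p17 mice above every OIR p14 mouse. Between these OIR ages, 4.11% of all genes passed as higher at p17. At p17 Aplnr was thus compared with a control level that was lower than at p14. All 8 OIR p17 mice, with at least 777, also lay above the mean of nOIR p14 mice, 634, though not above the highest of them, 883.

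Apela, the gene of the other ligand, was lower in OIR mice at p14, where Apln was higher. It was read at a low level, from 60.4 to 93.6 normalized reads in nOIR p14 mice and from 20.6 to 58.0 in OIR p14 mice, with no overlap, as for 1.86% of genes in that direction. The log2 difference at p14 was -1.09 (SE 0.25, limma adjusted p = 0.00616), among the 2.91% of genes that passed as lower at p14. With nOIR p14 mouse S4, which had 20.8 normalized reads of Apela, included, the difference was -0.82 and the call was lost (limma adjusted p = 0.102), as it was after scaling to the pan-endothelial genes described below (-0.90, limma adjusted p = 0.0804). At p17, Apela ranged from 63.1 to 122.9 in nOIR and from 49.0 to 109.7 in OIR mice, and its log2 difference of -0.39 did not pass (95% interval -0.88 to 0.09, limma adjusted p = 0.336). In OIR mice, Apela was 0.97 higher at p17 than at p14 on the log2 scale (SE 0.23, limma adjusted p = 0.0099), with 7 of 8 OIR p17 mice above every OIR p14 mouse, the same direction as Apln and Aplnr. It passed in 11 of 14 other settings and was lost with a replicate block (0.88, limma adjusted p = 0.0542), with only the compared groups in the fit (limma adjusted p = 0.0676) and after scaling to the pan-endothelial genes (-0.27, limma adjusted p = 0.358). The effect of OIR on Apela was not shown to differ between the ages (0.69, SE 0.34, limma adjusted p = 0.479).

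To compare levels between the genes, reads were divided by exonic length (3149 bases for Apln, 3699 for Aplnr and 1004 for Apela). In nOIR p14 retinas, Aplnr stood highest with a mean level of 171 ± 36.5 normalized reads per kb (SD, n = 6), before Apln with 90.2 ± 31.8 and Apela with 78.9 ± 11.9. The range of Apln, 66.1 to 153, overlapped those of both others. In OIR p14 retinas, the order was Apln with 266 ± 72.0 per kb, Aplnr with 144 ± 57.7 and Apela with 39.4 ± 16.9, and the ranges of Apln and Aplnr overlapped. In nOIR p17 retinas, Apela with 96.4 ± 20.03 and Aplnr with 87.5 ± 16.5 per kb were alike within their spread, and Apln was lowest with 53.6 ± 11.8, although its highest mouse, at 75.3, overlapped both. In OIR p17 retinas, Apln reached 1195 ± 352 per kb (SD, n = 8), before Aplnr with 263 ± 39.6 and Apela with 73.7 ± 19.3, and none of these ranges overlapped. Per kb, the mean level of the ligand gene was thus below that of its receptor gene in control retinas of both ages and above it in OIR retinas of both ages.

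The ratio of Apln to Aplnr within a mouse is free of the size factor of that mouse. In normalized reads, Apln was 0.299 to 0.718 times Aplnr in nOIR p14 mice and 0.390 to 0.734 times in nOIR p17 mice. It was 0.899 to 4.42 times Aplnr in OIR p14 mice and 1.73 to 5.71 times in OIR p17 mice. Every OIR mouse thus had a higher ratio than every nOIR mouse of either age, while the OIR groups overlapped with each other. The wide range at p14 came from 2 mice. OIR p14 mice S2 and S3 had ratios of 4.42 and 3.40, the other 4 had ratios from 0.899 to 1.21.

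Those mice differed in other genes too. S2 and S3 had the highest Apln of the OIR p14 group (1067 and 1175 normalized reads), the highest Vegfa (7712 and 8754, against 4151 to 6407 in the other 4) and the lowest Aplnr (242 and 346). They also had the lowest mean log2 level of 12 pan-endothelial genes such as Pecam1 and Cdh5 (8.18 and 8.19, against 8.31 to 8.95) and of 6 pericyte markers (7.24 and 7.45, against 7.55 to 8.39). The mean log2 level of the 12 hypoxia-induced genes did not separate them, with 11.64 in S2 and 11.75 in S3 against 11.06 to 11.80 in the other 4, and the highest value was in S1, the mouse with the lowest Vegfa. The mean of the 12 tip cell genes was the highest of the group in S2 (7.90) and the lowest in S3 (7.35). Esm1, a tip cell gene, did not separate them either, with 118 in S2 and 18.2 in S3, the second highest and the lowest of the group. Without S2 the log2 fold change of Apln at p14 was 1.496, and without S3 it was 1.47.

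**Figure D2:**
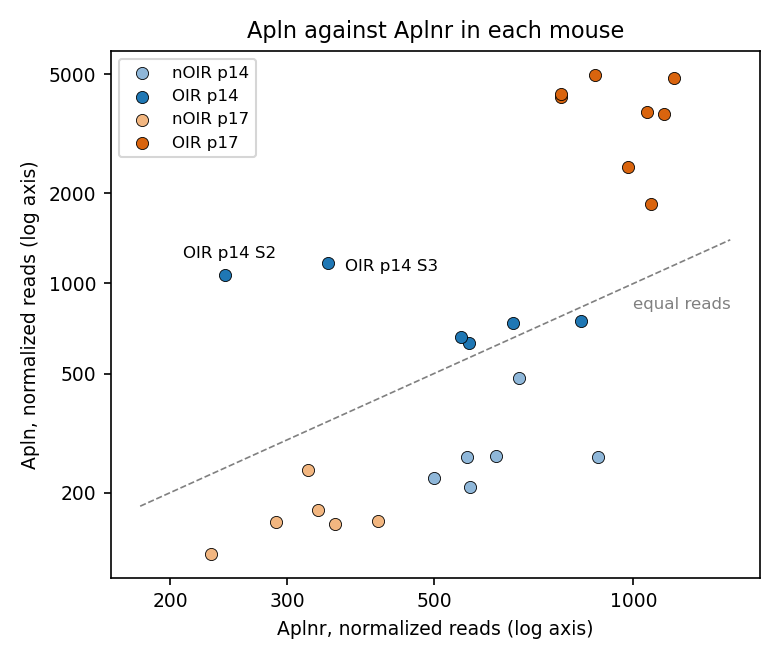
Normalized reads of Apln (vertical log axis) against those of Aplnr (horizontal log axis), each point 1 mouse, coloured by group, with a dashed line where both are equal. All nOIR mice lie under the line and all OIR p17 mice above it, and OIR p14 mice S2 and S3 stand apart from the other 4 OIR p14 mice, with more Apln and less Aplnr.

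Within groups, 12 relations were computed, of Apln with Aplnr and of each with the mean of the 12 pan-endothelial genes in each group. None had an adjusted p under 0.05, and the groups were not pooled because they form separate clusters. In OIR p14 mice, the Pearson r of Apln with Aplnr was -0.77 (n = 6, exact permutation p = 0.131, adjusted 0.522; Spearman rho -0.43, exact p = 0.419, adjusted 0.839). Without the 2 mice farthest from the group median of the gene named first, here Apln, it turned to 0.85, so it rests on those mice. In the same mice, Aplnr rose with the pan-endothelial mean with r = 0.79 (n = 6, exact permutation p = 0.0194, adjusted 0.126; rho 0.83, exact p = 0.0583, adjusted 0.7), and r was 0.86 without 2 mice. In OIR p17 mice, Apln and the pan-endothelial mean had r = 0.83 (n = 8, exact permutation p = 0.0210, adjusted 0.126; rho 0.57, exact p = 0.151, adjusted 0.7), and r fell to 0.42 without 2 mice. OIR p17 mouse S4 had the lowest Apln (1841) of its group and also the lowest pan-endothelial mean (9.32), Vegfa (6540), Angpt2 (1039) and Esm1 (278), while its Aplnr, 1062, lay within the range of the others.

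Endothelial genes themselves differed between the groups, so both members were also set against them. At p14, 1 of 12 pan-endothelial genes passed as higher (Pecam1, 0.40 on the log2 scale) and 1 as lower (Cldn5, fell by 0.83 on the log2 scale), with a median log2 fold change of -0.18. At p17, 10 of 12 passed as higher, with a median of 1.46 against -0.02 over all genes tested, the exceptions being Tek and Kdr. Summed over the list, pan-endothelial genes had 10564 to 13758 normalized reads in nOIR p14, 8576 to 14013 in OIR p14, 8650 to 10390 in nOIR p17 and 12956 to 17603 in OIR p17 mice. Pericyte markers fell in 3 of 6 cases at p14 (median -0.71) and rose in 6 of 6 at p17 (median 1.59), or 2 of 6 at p17 after scaling to the pan-endothelial genes. Beside these counts, 3.18% of all genes passed as higher and 2.91% as lower at p14, and 7.39% as higher at p17. After that scaling, 434 of 27137 genes were called higher at p17.

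Set against these genes, Apln still differed between OIR and nOIR mice at both ages, and Aplnr did not pass at either. The log2 level of Apln minus the mean log2 level of the pan-endothelial genes was -0.51 ± 0.39 in nOIR p14, 1.25 ± 0.57 in OIR p14, -0.95 ± 0.31 in nOIR p17 and 2.15 ± 0.38 in OIR p17 mice (SD over mice). For Aplnr the corresponding differences were 0.68, 0.53, -0.01 and 0.25, with overlapping ranges at both ages. When every mouse was scaled to its pan-endothelial mean, Apln remained higher in OIR mice by 1.77 at p14 (SE 0.22, limma adjusted p = 1.05e-06) and by 3.10 at p17 (SE 0.21, limma adjusted p = 1.07e-13). Its effect was still larger at p17, by 1.336 (SE 0.30, limma adjusted p = 0.000229). Aplnr was 0.27 higher at p17 (SE 0.17), which did not pass (limma adjusted p = 0.150), and the difference of its effects between the ages, 0.41, did not pass either (SE 0.25, limma adjusted p = 0.133). In the scaled comparison of OIR p17 with OIR p14 mice, Apln was 0.90 higher (SE 0.21, limma adjusted p = 0.000238), and Aplnr had a difference of -0.27 that did not pass (SE 0.17, limma adjusted p = 0.136). This scaling moved the median of all genes by -1.33 at p17, by 0.19 at p14, by -1.24 between the OIR ages and by -1.52 for the difference of effects, so a gene that did not change per retina would move by about that much. At p17 it left 434 genes called higher and 21252 called lower against 2005 and 1390 on the deposited scale. The scaled values therefore state levels per endothelial signal, not per retina.

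**Figure D3:**
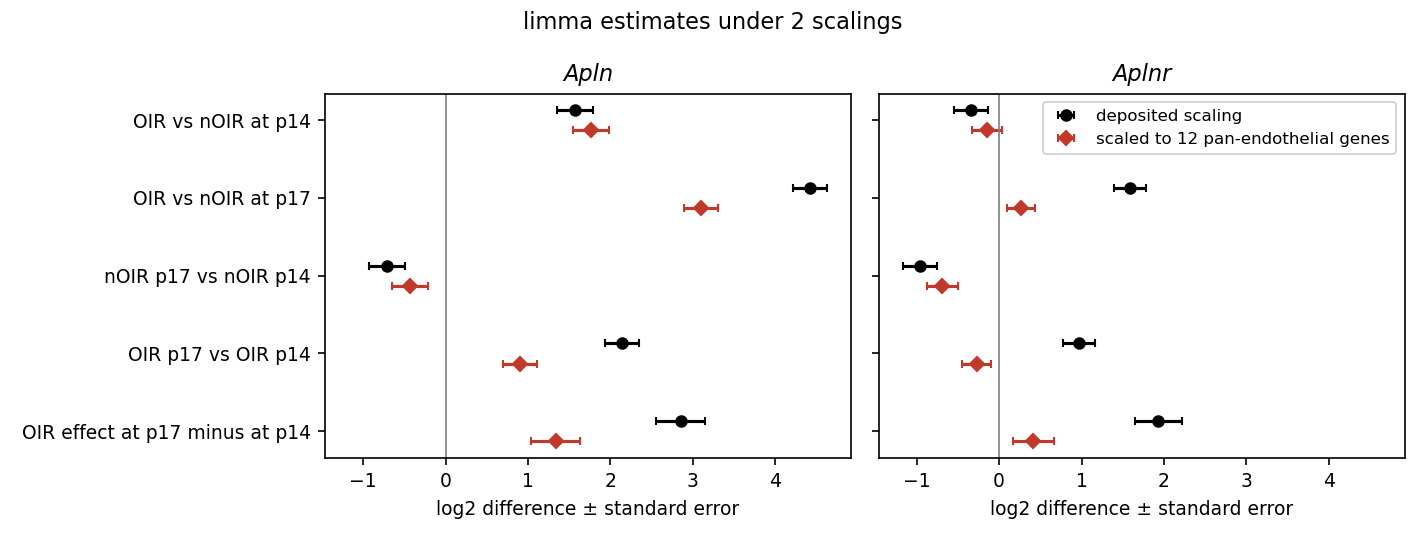
Log2 differences of Apln and Aplnr in 5 contrasts, with standard errors from limma, on the deposited scale (black) and after scaling each mouse to 12 pan-endothelial genes (red). Apln at p17 goes from 4.43 to 3.10 and keeps its call, whereas Aplnr at p17 goes from 1.59 to 0.27.

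The other genes of the apelin pathway were described from lists. Among enzymes known to cut apelin or its precursor, Furin, the proprotein convertase, had log2 differences between OIR and nOIR mice of 0.00 at p14 and -0.67 at p17 that did not pass. Mme, the membrane protease neprilysin, had differences of 0.42 and -0.92, and Klkb1, the plasma kallikrein, of -0.03 and -0.13, which did not pass either.

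Among 15 genes that act below the apelin receptor, 1 passed as higher at p14 and 0 as lower by limma (3 at an unadjusted p, and 1 each by edgeR and DESeq2). It was Gna13, a G protein subunit, at 0.29 (limma adjusted p = 0.0446), which passed in 9 of 14 other settings and 12 of 26 fits without 1 mouse. Over all genes tested at p14, 3.18% passed as higher and 2.91% as lower. At p17, 4 of 15 passed as higher and 1 as lower, with a median of -0.07, where 7.39% of all genes passed as higher and 5.12% as lower. The inhibitory G protein subunit Gnai2 was 0.79 higher (SE 0.09, limma adjusted p = 1.64e-07), with 6724 to 8143 normalized reads in nOIR and 9824 to 16180 in OIR mice. Smaller rises were measured for Gna13 (0.43), Gnai3 (0.34) and the endothelial nitric oxide synthase Nos3 (0.47), while Gnai1 fell by 0.66 on the log2 scale. The 4 higher genes passed as higher in 13 of 14 other settings, the exception being the scaling to the pan-endothelial genes, which called 21252 of 27137 genes lower at p17, all 15 of these among them. Mef2c, a transcription factor downstream of the receptor, did not pass between OIR and nOIR mice but was 0.82 higher in nOIR p17 than in nOIR p14 mice, among 0.158% of genes that passed as higher there.

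Among the angiotensin receptors, the closest relatives of Aplnr in sequence, 2 of 3 genes passed the filter. Agtr2 had a log2 difference of -1.47 at p17 (SE 0.47, limma adjusted p = 0.0358), from 29.8 to 78.6 normalized reads in nOIR and from 5.95 to 46.6 in OIR mice, and it lost the call in 9 of 26 fits without 1 mouse and in 2 of 14 other settings, edgeR (adjusted p = 0.0774) and all genes above 0 (adjusted p = 0.0613). Of all genes, 5.12% passed as lower at p17. As higher at p17, 0 of 2 passed by limma, edgeR or DESeq2, while 1 did at an unadjusted limma p under 0.05. At p14, 0 of 2 passed by limma, edgeR or DESeq2 (0 unadjusted).

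Genes known to be induced by low oxygen rose together with Apln. Of 12 listed, 8 passed as higher at p14 with a median log2 fold change of 0.61, and 11 of 12 at p17 with a median of 0.93, beside 3.18% and 7.39% of all genes. After scaling to the pan-endothelial genes, 9 were called higher at p14. At p17, 3 were then called higher and 6 lower, where that scaling called 434 of all 27137 genes higher and 21252 lower. Adm, which encodes the vasoactive peptide adrenomedullin, rose by 3.03 at p14 and 5.52 at p17. Egln3, a prolyl hydroxylase of HIF, rose by 2.64 and 3.32, and Vegfa, the main endothelial growth factor, by 0.66 and 1.49. The rise of Apln, 1.57 and 4.43, lay between those of Vegfa and Adm at both ages. Among the HIF subunit genes Hif1a, Epas1 and Arnt and the gene Vhl, whose product marks HIF for degradation, 0 of 4 passed at p14 by limma, edgeR or DESeq2 (0 unadjusted). At p17, Hif1a passed at -0.30 and Vhl at 0.29.

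Tip cell genes rose as well. Of 12 listed, Adm again among them, 9 passed as higher at p14 with a median of 1.10 and 12 of 12 at p17 with a median of 2.73, or 8 of 12 at p17 after scaling to the pan-endothelial genes. Beside these and the venous and arterial counts below, 3.18% of all genes passed as higher at p14 and 7.39% at p17. As lower, 2.91% and 5.12% of all genes passed. The scaling called 434 of 27137 genes higher at p17. Esm1, an endothelial proteoglycan of tip cells, rose from at most 4.44 normalized reads in nOIR p14 mice to 18.2 to 140.3 in OIR p14 mice. Angpt2, the context-dependent antagonist of the receptor Tek, rose by 0.88 at p14 and 2.88 at p17, and Dll4, a Notch ligand, by 0.90 and 2.08. These lists and the members were chosen with earlier results of these data known, so the counts describe the tissue beside Apln and are not independent support. Venous and arterial genes moved less evenly. Of 5 venous genes, 0 passed at p14 by limma or edgeR and 1 by DESeq2 (1 at an unadjusted limma p under 0.05). At p17, Ephb4 (1.02) and Vwf (1.78) passed on the deposited scale, and neither after scaling to the pan-endothelial genes. Of 7 arterial genes, Gja4 rose (0.72 and 2.10) and Gkn3 passed as lower at both ages, and the other 5 did not pass at either age. Gkn3 had 13.3 to 47.8 normalized reads in nOIR p14 mice and was at 0 in all 6 OIR p14 mice, and at p17 it had 26.6 to 43.6 in nOIR and 0 to 21.5 in OIR mice.

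Other peptide ligands were set beside Apln with their receptors. Adm rose at both ages, whereas its receptor gene Calcrl had log2 differences of -0.37 at p14 and -0.16 at p17 that did not pass. The endothelin ligand Edn2 rose by 7.44 and 7.64, and its receptor gene Ednra fell by 0.92 at p14 and rose by 2.23 at p17. Edn2 was at the floor in control mice, with 0 to 14.2 normalized reads in nOIR p14 and 0 to 7.42 in nOIR p17 mice. It had 133 to 783 in OIR p14 and 138 to 944 in OIR p17 mice. The size of its log2 differences therefore depends on the 1 added before the log2. The chemokine Cxcl12 did not pass (-0.20 and 0.09), while its receptor gene Cxcr4 rose at p17 by 2.01. The endothelin ligand Edn1 and the receptor gene Ednrb did not pass at p14 (-0.08 and 0.01) and rose at p17 by 1.21 and 1.12. Over these 8 genes, 2 passed as higher and 1 as lower at p14, and 6 as higher and 0 as lower at p17 by limma, edgeR and DESeq2 (0 lower unadjusted), with 3 higher and 2 lower after scaling to the pan-endothelial genes. Among all genes, 3.18% passed as higher and 2.91% as lower at p14, and 7.39% and 5.12% at p17 by limma. At p17 the scaling called 434 of 27137 genes higher and 21252 lower. In the pair of Apln and Aplnr the ligand gene rose at both ages and the receptor gene passed at p17.

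**Figure D4:**
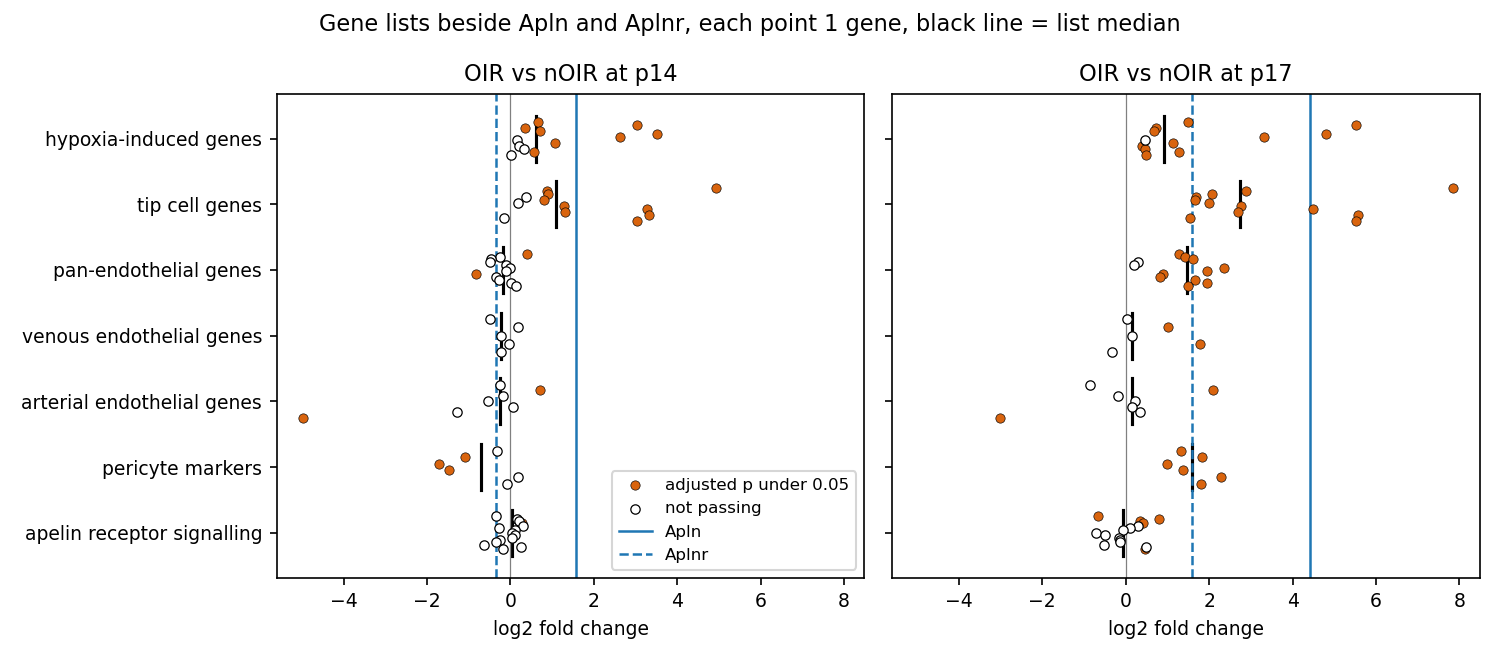
Log2 fold changes of OIR against nOIR mice at p14 (left) and p17 (right) for the genes of 7 lists, each point 1 gene, filled where the limma adjusted p is under 0.05, with a black line at the list median and blue lines for Apln (solid) and Aplnr (dashed). The Apln line lies above the medians of all 7 lists shown at both ages, and the Aplnr line at 1.59 lies near the medians of the pan-endothelial genes (1.46) and the pericyte markers (1.59) at p17. This ranking covers the lists shown only, and the proliferation genes had a median of 2.35 at p14.

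Markers of other cells moved with the groups as well, and their part in the values of Apln and Aplnr was not tested. Astrocyte markers passed as higher in 2 of 3 genes at p14 and 3 of 3 at p17, and summed to 846 to 1660 normalized reads in nOIR p14 and 2789 to 8837 in OIR p14 mice. Most of this sum was Gfap, an intermediate filament gene that Mueller glia also express under stress, with means of 600.5 and 5726, while Pdgfra had 482 and 799 and Pax2 5.52 and 8.28. Microglia markers passed as higher in 0 of 5 at p14 by limma, edgeR and DESeq2 (1 at an unadjusted limma p under 0.05) and in 3 of 5 at p17. Red blood cell markers passed as higher in 0 of 4 at p14 by each of these tools (0 unadjusted) and in 4 of 4 at p17, with sums of 180.3 to 1074 in nOIR p17 and 1131 to 15114 in OIR p17 mice. Proliferation genes passed as higher in 7 of 8 at p14 and 8 of 8 at p17. Mueller glia markers were lower in 2 of 3 genes at both ages (medians -0.52 and -0.47). Ganglion cell markers passed as lower in 1 of 5 genes at p14 and 2 of 5 at p17. Bipolar cell markers passed as lower in 1 of 4 at p14 and 4 of 4 at p17 (median -0.46), and rod markers in 1 of 5 and 2 of 5. All these counts are on the deposited scale, on which 3.18% of all genes passed as higher and 2.91% as lower at p14, and 7.39% and 5.12% at p17. Since Apln is X-linked and pups of both sexes were used, the log2 level of Xist was also taken as a covariate, with which Apln was 1.61 higher at p14 and 4.43 higher at p17.

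The genes whose levels were most like those of Apln were found by Pearson r of log2 levels over the 26 mice, among the 19003 other genes that averaged 10 or more normalized reads. The points share their groups, so r mainly follows the group means, and no p is given. The 10 most like Apln were Cd93 (r = 0.965), Vegfa (0.964), Angpt2 (0.961), Tpm4, Fblim1, Acta2, Fxyd5, Cd248, Clic4 and Ppic (0.951). Cd93, an endothelial transmembrane glycoprotein, had mean levels of 389 normalized reads in nOIR p14, 702 in OIR p14, 274 in nOIR p17 and 1573 in OIR p17 mice. Acta2, the actin of mural cells, had 224, 908, 172 and 2190 in the same order. All of these had the same order of group means as Apln, with OIR p17 highest and nOIR p17 lowest. Aplnr ranked 1028th for likeness to Apln (r = 0.69).

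The 10 genes most like Aplnr were Thbs2 (r = 0.879), Tspan18, Bgn, Ets1, Clec14a, Tie1, Nrp1, Heyl, Trp53i11 and Mmp14 (0.823). Tie1, an endothelial receptor kinase, had mean levels of 522 normalized reads in nOIR p14, 399 in OIR p14, 385 in nOIR p17 and 1179 in OIR p17 mice. Thbs2, a matricellular thrombospondin, had 66.4, 57.4, 31.1 and 112 in that order. In both the OIR p14 mean lay below the nOIR p14 mean, as for Aplnr, and so it did in Tspan18, Clec14a, Heyl and Trp53i11. The OIR p14 mean lay above the nOIR p14 mean in Bgn (nOIR 177 and OIR 251), Ets1 (554 and 567), Nrp1 (823 and 930) and Mmp14 (896 and 938). When the group means were taken out, the genes most like Apln were Trim32 (r = 0.758), Dhcr7, A930027H12Rik, H3c15 and Gfod1 (0.692), and those most like Aplnr were Fzd6 (0.809), Ddx21, Siah3, Tmem248 and Fstl1 (0.746). Within groups, the deviations of Apln and Aplnr had r = -0.22.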

How the data were processed

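Whole-retina RNA of single mice was sequenced as single reads from cDNA libraries that do not mark strand. Per the submitters' processing notes and the study's methods, the authors checked reads with FastQC (0.73), mapped them with STAR (2.7.8a), counted them on genes with featureCounts (2.0.1, Gencode M28), dropped genes at 0 in all samples and divided counts by DESeq2 (1.34) size factors in R (4.0.3). This deposited signal of normalized reads was used. The authors' group means, fold changes and adjusted p-values in the same table were not used.

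Dividing by 1 step per mouse gave whole reads for 100% of the values (tolerance 0.01), and these carry counting error and PCR copies alike. No 2 mice of a group were copies (chi-square per degree of freedom of at least 9.39, genes with at least 20 reads). With log2(normalized reads + 1), genes with a mean of at least 1 were fitted by limma 3.58.1 (lmFit, eBayes with trend, R 4.3.3) over 26 mice and 4 groups, with Benjamini-Hochberg adjustment over 27137 genes. Fold changes are on that log2 scale. The threshold was an adjusted p under 0.05. The study's DEG rule adds a log2 fold change above 2 or below -2. Permutation tests were exact and two-sided (scipy 1.17.1). In data simulated for the p14 comparison over 27137 genes, limma recovered 69% of 100 genes changed by 1 and 94% of 100 changed by 2 on the log2 scale, with 7 false calls.

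The mice of 1 number were not paired. Their deviations correlated with r from -0.108 to 0.161 over 34 pairs. Alternatives were other pseudocounts and filters, S4 included, only the compared groups, a replicate block, other scalings, Xist and Cryaa as covariates, edgeR 4.0.16 and DESeq2 1.42.0 on recovered reads, and leaving out each mouse. Named genes are Apln, Aplnr, members of the lists, and by Pearson r the 10 genes most like each member and the 5 most like it after removal of group means. Members and lists were chosen with earlier results of these data known. Sequences came from GENCODE M21 and RefSeq (GRCm38.p6), another build than the counts, and exonic lengths from GENCODE M21. Some genes of the lists are not reported here.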

Additional observations from a re-analysis of the deposited data

Results flagged for a closer look

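In nOIR p14 mouse S3, Apln had 482.6 normalized reads, far above the other 5 mice of its group, which had 208 to 265. It was the 1 such mouse among 8 groups of values checked (Apln and Aplnr in each group), and chance alone marks about 1 group in 20. Its Aplnr, 672, lay within the range of its group. Without this mouse, the log2 fold change of Apln at p14 was 1.74 in place of 1.57.

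The effect of OIR differed between the ages for both genes. For Apln, the log2 fold change at p17 minus that at p14 was 2.85 (SE 0.30, limma adjusted p = 6.80e-07). For Aplnr, it was 1.93 (SE 0.28, limma adjusted p = 0.000102). After scaling to the pan-endothelial genes the difference was 1.336 for Apln and 0.41 for Aplnr, and only that of Apln passed.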

How the results depend on the processing

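Each of the 5 comparisons of Apln kept its direction and its side of the threshold in every alternative, between 1.47 and 1.77 at p14 and between 3.10 and 4.56 at p17. Scaling to the pan-endothelial genes changed Aplnr, with log2 differences of 0.27 at p17, -0.69 between nOIR ages (adjusted p = 0.0513), 0.41 for the difference of effects and -0.27 between OIR ages, a change of sign that did not pass (adjusted p = 0.136). This scaling also took the difference of Apln between OIR ages from 2.14 to 0.90. By construction it removes what the endothelial genes share, and it moved the median of all genes by -1.24 between OIR ages. Without 1 mouse, Aplnr between nOIR ages lay between -1.04 and -0.87 and lost its call in 7 of 26 fits. The within-group r of Apln with the pan-endothelial mean in OIR p17 mice was 0.91 after quantile normalization (adjusted p = 0.0393), and the cause was not tested. With a replicate block, Apln was 1.60 higher at p14 and 4.36 at p17, and Aplnr -0.44 and 1.66, with no call of either changed. Only 5 of 25 mice correlated best with mice of their own number. Of 3520 counts over the gene lists under the alternatives, 174 moved by over 1.5 times. Depth limits the low genes, such as Apela with as few as 24 recovered reads in a compared mouse.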
